A study of Mus musculus with 19 samples.

Results

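The genes described here are 34 genes of the unfolded protein response, out of 24210 genes named in the deposited table. They were taken as a list by function, with earlier results of these data known, and each was read from the RefSeq accession with the highest mean count over the 19 libraries. RNA came from uncultured lin- Sca+ cKit+ cells, the bone marrow fraction that holds stem and early progenitor cells, of C57BL/6 mice. The WT group was 4 libraries of untreated wild-type mice. Idh2 R140Q;Flt3-ITD mice with acute myeloid leukemia gave 3 libraries after vehicle and 4 after AG-221, an oral inhibitor of mutant IDH2 given 2 times a day for 4 to 5 weeks. Its dose was 100 mg/kg in the single-agent study and 40 mg/kg in the combination study. Tet2-/- mice that also carried the Flt3 allele, spelled Flt3-IDT in the labels, gave 4 libraries after vehicle and 4 after 5-Aza, a hypomethylating drug injected over 4 cycles of 21 days, with 5 daily doses of 5 mg/kg per cycle. The protocol calls this drug 5-Aza and the series text gives it both as 5-Azacytidine and as Decitabine, which are different drugs, so which of them was given is not settled by the sources used here. Both leukemic lines carried the Flt3 allele in every library, and WT carried neither mutation. The sources used here do not give the mice's ages, the AG-221 dose of each library, what drives the mutant alleles, or whether libraries came from separate mice. P-values then measure the spread between libraries, which may be technical.

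The unfolded protein response is the cell's answer to proteins that fail to fold in the endoplasmic reticulum (ER). Its sensors in the ER membrane are IRE1 (Ern1), which splices Xbp1 mRNA, PERK (Eif2ak3), which slows translation and raises Atf4, and ATF6, which is cleaved into a transcription factor. Their targets are ER chaperones, disulfide isomerases, the translocon and the machinery of ER-associated degradation. Hematopoietic stem cells are known to be sensitive to this stress, and myeloid progenitors make granule proteins in the ER in large amounts.

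ATF6 and XBP1, together with the CCAAT-binding factor NF-Y, are known to act through the ER stress response element (ERSE). RefSeq promoters in build GRCm38.p6, from 250 bases before to 50 after the transcription start, matched 28 of the 34 genes. Both strands were searched. The ERSE, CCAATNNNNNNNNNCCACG, was found in 9 of these 28 genes, against 0.137% of the 27025 genes with a promoter in the table. A related element, ERSE-II, is ATTGG and CCACG with 1 base between them, shares its second stretch with the ERSE, and was found in 2 of the 28 against 0.0444% of all genes. The genes were listed for their part in a response known to act through the ERSE, so these shares are no independent test. The promoters of Hspa5, the classical target, and of 4 genes whose RNA rose in vehicle-treated IDH2-FLT3 cells are shown, with these elements in capitals. The other genes with an element are given by their sites alone. Of these Dnajc3 also rose, no rise of Creld2, Derl3, Syvn1 or Dnajb11 passed the threshold, and Canx gave no value.

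Hspa5, chr2:34771840-34772139, plus strand: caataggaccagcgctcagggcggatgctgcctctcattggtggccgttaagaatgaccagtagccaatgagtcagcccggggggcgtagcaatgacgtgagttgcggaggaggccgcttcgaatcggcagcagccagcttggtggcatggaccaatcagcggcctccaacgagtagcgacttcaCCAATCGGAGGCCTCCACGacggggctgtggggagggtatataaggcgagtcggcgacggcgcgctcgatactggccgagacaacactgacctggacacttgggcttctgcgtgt
Hsp90b1, chr10:86705395-86705694, minus strand: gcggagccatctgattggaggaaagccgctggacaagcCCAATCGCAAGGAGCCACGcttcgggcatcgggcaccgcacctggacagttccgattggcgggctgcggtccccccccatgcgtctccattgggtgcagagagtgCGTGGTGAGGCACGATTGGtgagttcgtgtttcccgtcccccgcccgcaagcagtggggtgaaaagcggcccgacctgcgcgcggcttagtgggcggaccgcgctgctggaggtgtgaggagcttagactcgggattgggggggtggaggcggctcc
Calr, chr8:84846882-84847181, minus strand: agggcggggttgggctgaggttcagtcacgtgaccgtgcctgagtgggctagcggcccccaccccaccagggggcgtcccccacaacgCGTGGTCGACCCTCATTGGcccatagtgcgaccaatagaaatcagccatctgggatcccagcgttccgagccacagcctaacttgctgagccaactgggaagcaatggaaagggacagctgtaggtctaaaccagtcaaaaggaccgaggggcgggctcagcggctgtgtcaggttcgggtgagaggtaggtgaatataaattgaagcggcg
Pdia6, chr12:17266339-17266638, plus strand: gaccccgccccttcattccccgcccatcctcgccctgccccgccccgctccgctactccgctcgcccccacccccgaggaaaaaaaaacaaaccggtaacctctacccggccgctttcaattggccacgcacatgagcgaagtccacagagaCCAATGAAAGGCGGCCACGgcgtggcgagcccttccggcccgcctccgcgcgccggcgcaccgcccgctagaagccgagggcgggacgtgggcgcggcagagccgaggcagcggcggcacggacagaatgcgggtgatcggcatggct
Herpud1, chr8:94386179-94386478, plus strand: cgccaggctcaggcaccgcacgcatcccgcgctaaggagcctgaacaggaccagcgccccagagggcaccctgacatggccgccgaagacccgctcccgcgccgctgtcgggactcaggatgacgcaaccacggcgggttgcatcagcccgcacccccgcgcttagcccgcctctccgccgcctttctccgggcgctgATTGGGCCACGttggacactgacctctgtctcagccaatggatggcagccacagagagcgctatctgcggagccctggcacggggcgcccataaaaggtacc

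In Hspa5 the ERSE lay 47 to 65 bases before the start, and in Pdia6 80 to 98 bases before it. The Hsp90b1 promoter held 2 copies, one on each strand, 194 to 212 and 89 to 107 bases before the start. In Calr the element was on the opposite strand, 144 to 162 bases before the start, and in Herpud1 the ERSE-II lay 42 to 52 bases before it. The other 5 genes with an ERSE and 1 with an ERSE-II, Dnajb11, had these sites, written as they read on the gene's strand.

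Canx: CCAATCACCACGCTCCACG
Creld2: CGTGGCGAGCCTCAATTGG
Derl3: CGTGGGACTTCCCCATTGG
Dnajc3: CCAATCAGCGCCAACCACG
Syvn1: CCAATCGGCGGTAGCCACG
Dnajb11: ATTGGCCCACG

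In Creld2 and Derl3 the site reads as the reverse complement, and in Dnajb11 it lay 8 to 18 bases after the start. The short core TGACGTG, to which XBP1 and ATF6 are known to bind, was found in Hspa5 alone of the 28 genes, against 2.22% of all genes. A composite ATF4 element, TGATGNAA, was found in Herpud1 and Trib3, against 4.51% of all genes. These matches describe letters in a window.

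The libraries held 9635795 to 20383132 assigned counts and 12088 to 15509 accessions with a count. Of the 34 genes 31 passed the filter on low counts. Levels are given as CPM, counts brought to a common library size by the totals and edgeR's trimmed-mean (TMM) factors, and an adjusted p under 0.05 counts as a call. The table holds counts per RefSeq accession. Of the accessions of genes with several, 61.6% had no count in any library, against 18.7% of single accessions. Of 5140 genes with several accessions, 1392 had no count in any of them, so summing accessions gives them no value. Canx and Xbp1 were listed at 0 in every library, so these genes give no value here. Hspa5, with 1 to 33 counts, Atf4, with 0 to 57, Ddit3, with 1 to 18, and Sel1l, with 0 to 60, also have several accessions. So do Derl2, with 0 to 13 counts and not tested, Syvn1, with 27 to 111, and Dnajb11, with 261 to 922. The levels of all these members may not be those of the genes. The sort could not be checked for the same reason: Kit read at most 0.151 CPM and Ly6a read 0 in every library.

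In WT cells the levels per kilobase of transcript spanned a wide range over the members. Calr, an ER calcium-binding chaperone, stood highest at 545 ± 166 CPM per kb (mean ± SD, n = 4), followed by Sec61b, a subunit of the translocon, at 454 ± 54.6 CPM per kb. Ssr2, of the translocon-associated complex, was at 277 ± 54 CPM per kb, Hsp90b1 (GRP94), the ER member of the HSP90 family, at 269.8 ± 103 and Pdia6, a disulfide isomerase, at 195 ± 87.8. Neighbours in this order differed by less than the sum of their SDs, except Sec61b and Ssr2, which differed by more. The sensors were low: Atf6 was at 7.79 ± 0.708 CPM per kb, Eif2ak3 at 7.08 ± 0.58 and Ern1 at 3.26 ± 0.347. Ern1 lay below Eif2ak3 by more than the sum of their SDs, and Atf6 and Eif2ak3 did not.

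**Figure D1:**
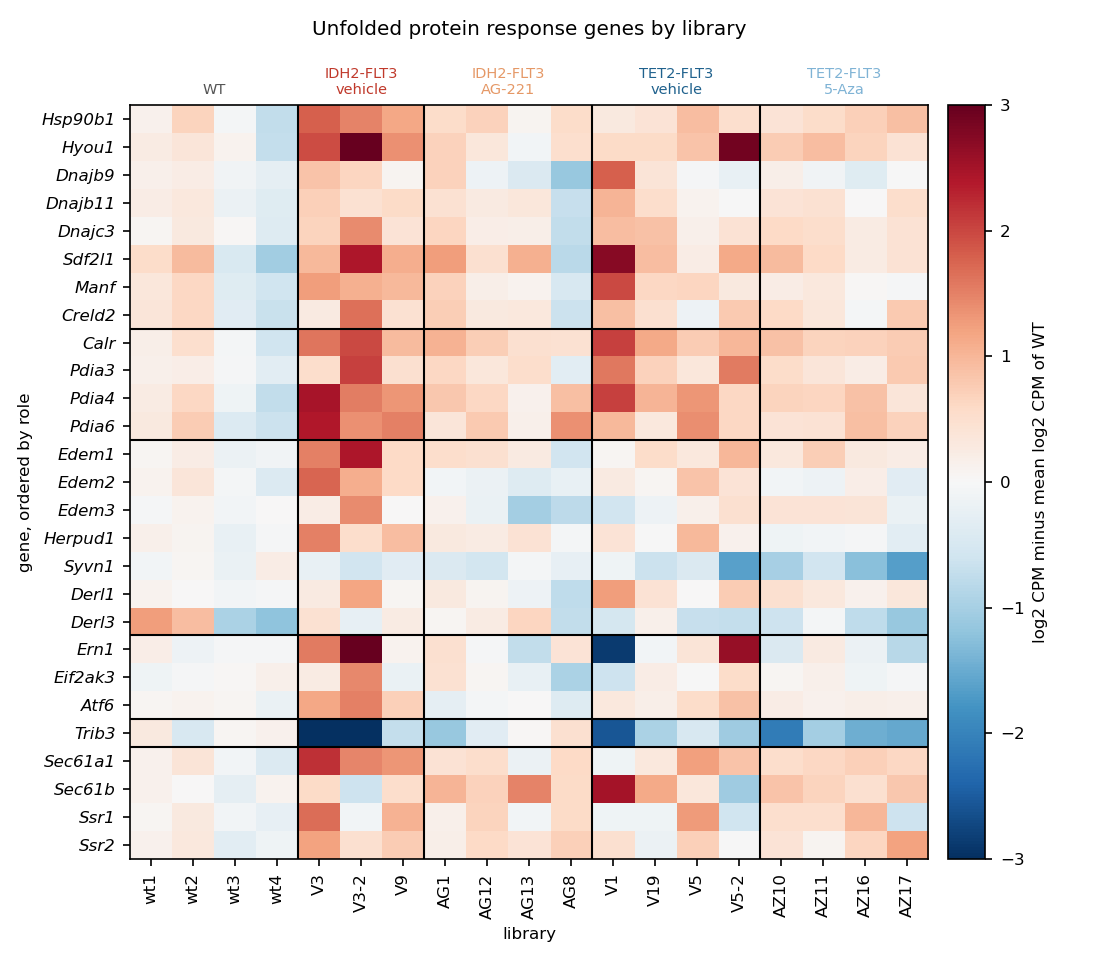
Level of each of 27 members with a mean of at least 40 counts (rows, ordered by role, with black lines between roles) in each library (columns, by group), as log2 CPM minus the mean log2 CPM of the WT libraries. Colours stop at 3 on either side. The 3 IDH2-FLT3 vehicle libraries are red over most rows, the AG-221 columns are paler, Trib3 is blue in V3 and V3-2, and V3-2, V5-2 and V1 differ from their own groups in single genes such as Hyou1, Ern1 and Sec61b.

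In IDH2-FLT3 vehicle cells the chaperones Hsp90b1, Hyou1 and Dnajc3, Calr and the disulfide isomerases Pdia3, Pdia4 and Pdia6, the degradation genes Edem1, Edem2 and Herpud1, the sensors Atf6 and Ern1 and the translocon pore Sec61a1 rose against WT, and Trib3 fell. Of the 31 members tested, 13 rose, 1 fell and 17 did not pass, where 10.1% of all 11830 accessions tested rose and 10.4% fell. The median log2 fold change was 1.03 over the members and 0.02 over all accessions. For 17 members every vehicle library lay above every WT library, against 17.1% of all accessions, and for 2 every one lay below, against 20%. By role, 3 of 9 chaperones and co-chaperones rose, all 4 tested lectin chaperones and isomerases, 3 of 8 degradation genes, 2 of 3 sensors and 1 of 4 translocon genes. In bulk samples, fewer cells of a type and less RNA per cell cannot be told apart.

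Among the chaperones, Hsp90b1 read 769, 1109, 679 and 420.4 CPM in the WT libraries. It read 2449, 1978 and 1572 CPM in the vehicle-treated IDH2-FLT3 libraries V3, V3-2 and V9. All vehicle libraries lay above all WT libraries, and the log2 fold change was 1.43 ± 0.30 (SE), with an adjusted p of 0.00307. Hyou1 (GRP170), a nucleotide exchange factor for the chaperone BiP, read 55.5, 59.6, 49.6 and 28.4 CPM in WT. In V3, V3-2 and V9 it read 181, 682 and 121 CPM. The groups did not overlap, but V3-2 stood far above the others. Its log2 fold change was 2.76 ± 0.55 (adjusted p = 0.00186), and 1.64 without V3-2 (adjusted p = 0.0304).

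The co-chaperone Dnajc3 (p58IPK), which binds unfolded proteins and restrains PERK, read 148, 176, 146 and 109 CPM in WT. In V3, V3-2 and V9 it read 226, 381 and 189 CPM. The rise of 0.88 ± 0.30 on the log2 scale passed at an adjusted p of 0.044, and the call was lost without wt1, wt3, wt4, V3 or V3-2 (0.0642 to 0.276). The J-domain partners of BiP, Dnajb9 (ERdj4) and Dnajb11 (ERdj3), had log2 fold changes of 0.54 ± 0.42 and 0.56 ± 0.29 and did not pass. Manf, a secreted ER-resident protein, had 1.02 ± 0.37 (adjusted p = 0.0537), Sdf2l1, of the ERdj3 complex, 1.45 ± 0.55 (0.0677), and Creld2 0.84 ± 0.38 (0.123). Every vehicle library lay above every WT library for Manf, Sdf2l1 and Dnajb11. Hspa5 (BiP), the master chaperone, read 2.19, 1.59 and 0.882 CPM in vehicle and at most 0.725 CPM in WT, with an adjusted p of 0.0779 on its few counts.

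The lectin chaperone Calr read 1147, 1441, 976 and 668 CPM in WT. It read 3124, 4041 and 1982 CPM in V3, V3-2 and V9, all above WT. The log2 fold change was 1.53 ± 0.35 (adjusted p = 0.0046). Pdia4 (ERp72), a disulfide isomerase, read 204, 266, 157 and 103 CPM in WT and 955, 501 and 428 CPM in vehicle. The groups lay apart, with a log2 fold change of 1.78 ± 0.36 (adjusted p = 0.00208).

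Pdia6, an isomerase that also acts on the sensor IRE1, read 473, 651, 287 and 245 CPM in WT and 2016, 993 and 1094 CPM in vehicle. All vehicle libraries lay above WT, with V3 highest, and the log2 fold change was 1.72 ± 0.38 (adjusted p = 0.00374). Pdia3 (ERp57), the partner of calreticulin and calnexin, read 436, 446, 379.9 and 316 CPM in WT and 562, 1612 and 545 CPM in vehicle. All vehicle libraries lay above WT, V3-2 by far the most. The log2 fold change was 1.20 ± 0.38 (adjusted p = 0.0288) and 0.49 without V3-2 (0.358), and the call was also lost without wt1, wt3 or wt4 (0.0525 to 0.0791).

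Among genes of ER-associated degradation, Edem1, which trims the mannose of misfolded glycoproteins, read 72, 80.7, 61.5 and 64.3 CPM in WT. It read 197, 372 and 105 CPM in V3, V3-2 and V9. These did not overlap with WT, and the log2 fold change was 1.69 ± 0.34 (adjusted p = 0.00189). Its relative Edem2 read 149, 178, 131 and 103 CPM in WT and 465, 291 and 209 CPM in vehicle. The log2 fold change was 1.20 ± 0.27 (adjusted p = 0.00402), and 0.83 without V3 (0.0546).

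Herpud1, a ubiquitin-like membrane protein that assembles the degradation complex, read 189, 179.7, 146 and 165 CPM in WT and 479, 245 and 321 CPM in vehicle. All vehicle libraries were above WT, and the log2 fold change was 1.04 ± 0.26 (adjusted p = 0.00819), or 0.73 without V3 (0.0832). Edem3 had a log2 fold change of 0.68 ± 0.33 (adjusted p = 0.15) and Derl1, a channel-like membrane protein, 0.59 ± 0.30 (0.168). Syvn1 (HRD1), the ubiquitin ligase of the pathway, read 6.58, 5.1 and 6.01 CPM against 7.2, 7.93, 6.61 and 8.94 CPM in WT, all of them below WT by a small margin, and its log2 fold change of -0.38 ± 0.38 did not pass. Derl3 had -0.20 ± 0.55 and Sel1l, the adaptor of HRD1, 1.02 ± 0.72, and neither passed.

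Of the sensors, Atf6 read 59.9, 62.3, 59.9 and 50.4 CPM in WT and 129.6, 165 and 94.7 CPM in IDH2-FLT3 vehicle. The WT libraries lay close together and all vehicle libraries lay above them. The log2 fold change was 1.16 ± 0.22 (adjusted p = 0.00137). Ern1 read 14.9, 11.7, 12.7 and 12.6 CPM in WT and 38.2, 233 and 13.9 CPM in vehicle. V9 lay inside the WT range, and V3-2 carried most of the difference. The log2 fold change was 2.87 ± 0.83 (adjusted p = 0.0192) and 1.01 without V3-2 (0.399), and the call was also lost without wt3 or wt4 (0.0512 and 0.0523). Eif2ak3 had 0.66 ± 0.36 (adjusted p = 0.191).

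Trib3, a pseudokinase induced by ATF4 and CHOP, was the member that fell. It read 19.8, 11.6, 17 and 17.8 CPM in WT and 0.675, 0.433 and 9.86 CPM in V3, V3-2 and V9. V9 lay just below the lowest WT library and the other vehicle libraries far below it. The log2 fold change was -2.19 ± 0.76 (adjusted p = 0.0449), and -4.92 without V9 (4e-05). Without wt1, wt3, wt4, V3 or V3-2 the call was lost (adjusted p 0.0781 to 0.159). Ddit3 (CHOP), with -0.28 ± 0.63, and Atf4, with 1.23 ± 1.06, rest on few counts and did not pass. Atf4 held 57 counts in V3-2, against 4 in V3, 2 in V9 and 2 to 10 in the WT libraries.

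In the translocon, Sec61a1, the pore subunit, read 269, 321, 232 and 185 CPM in WT and 1118, 684 and 614 CPM in IDH2-FLT3 vehicle. The groups lay well apart, and the log2 fold change was 1.68 ± 0.31 (adjusted p = 0.00109), the smallest p of the members. Ssr1 and Ssr2, of the translocon-associated complex, had 1.03 ± 0.44 (adjusted p = 0.102) and 0.83 ± 0.30 (0.0518). Sec61b had 0.24 ± 0.50, with 368, 163 and 358 CPM in vehicle and 207 to 273 CPM in WT.

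Of the 10 tested members with an ERSE or ERSE-II in the promoter 5 rose and 0 fell, with a median log2 fold change of 0.96, and of the 15 tested with a promoter and neither element 5 rose and 1 fell, with a median of 1.03. Calls of 8 members, Hsp90b1, Hyou1, Calr, Pdia4, Pdia6, Edem1, Atf6 and Sec61a1, were kept under all 15 alternative settings and with each of the 7 libraries of the comparison left out in turn. V3 and V3-2 may come from one mouse, which the sources used here do not say. With their counts summed, and V5 with V5-2 likewise, the same direction held for all 14 called members, with Dnajc3 at an adjusted p of 0.0887 and Trib3 at 0.142.

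**Figure D2:**
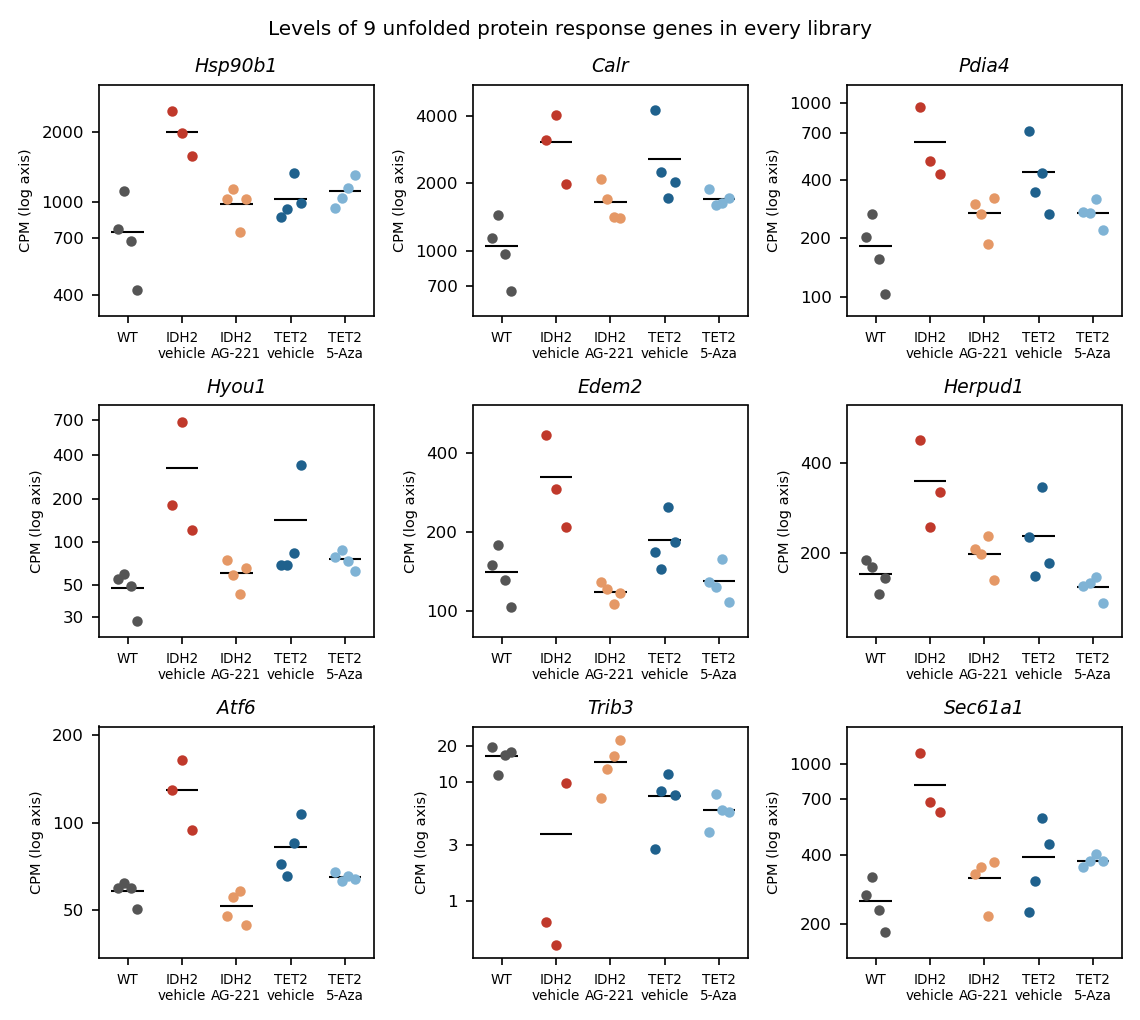
CPM on a log axis of 9 members in each library, by group, with each library as a point and the group mean as a line. The IDH2-FLT3 vehicle libraries lie above WT for every gene shown but Trib3, for which they lie below, and for Hsp90b1, Hyou1, Pdia4, Edem2, Herpud1, Atf6 and Sec61a1 the AG-221 libraries lie below all IDH2-FLT3 vehicle libraries.

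In TET2-FLT3 vehicle cells 3 of the 31 members rose against WT and 0 fell, where 4.43% of all accessions rose and 5.71% fell. The median log2 fold change was 0.52 over the members and 0.07 over all accessions. For 5 members every library lay above every WT library, against 6.98% of all accessions. This comparison and that of IDH2-FLT3 vehicle share the 4 WT libraries. The members that rose were all lectin chaperones and isomerases. Calr read 4224, 2256, 1727 and 2032 CPM in V1, V19, V5 and V5-2, all above the WT libraries, with a log2 fold change of 1.27 ± 0.33 (adjusted p = 0.0186). Pdia4 read 715, 347, 432 and 266 CPM, with V5-2 at the level of the highest WT library, and a log2 fold change of 1.27 ± 0.34 (adjusted p = 0.0228).

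Pdia3 read 1164, 633, 495 and 1151 CPM in the same libraries, and its log2 fold change was 1.13 ± 0.35 (adjusted p = 0.047). Calls of all 3 were lost without wt3, wt4 or V1 (adjusted p 0.0588 to 0.127), and in a fit to WT and this group alone; that of Pdia3 was also lost without wt1, wt2 or V5-2 (0.0739 to 0.0892). Hyou1 came next at 1.56 ± 0.51 (adjusted p = 0.0541), with 69.7, 69.5, 83.6 and 345 CPM, the last in V5-2. Atf6 had 0.51 ± 0.21 (adjusted p = 0.116), with every library above WT. Trib3, at 2.73, 8.45, 11.7 and 7.79 CPM, had -1.10 ± 0.65 (adjusted p = 0.287).

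Set against each other, the vehicle groups of the lines gave 0 members higher and 0 lower with edgeR, where 1.93% and 2.35% of all accessions passed. Of the 31, 9 had an unadjusted p under 0.05, and DESeq2 called 5 higher in IDH2-FLT3: Hsp90b1, Edem1, Edem2, Atf6 and Sec61a1. The median log2 difference, IDH2-FLT3 minus TET2-FLT3, was 0.57 over the members and 0.01 over all accessions. Edem1 was closest to a call at 1.17 ± 0.34 (adjusted p = 0.0508), followed by Sec61a1 at 1.04 ± 0.31 (0.0594) and Hsp90b1 at 0.96 ± 0.30 (0.0747). For Hsp90b1 and Sec61a1 every IDH2-FLT3 library lay above every TET2-FLT3 library, as for 4.07% of all accessions, and for 0 members every one lay below, as for 4.51%. Calr, Pdia3 and Pdia4, which had risen in both lines against WT, differed between them by 0.25 ± 0.35, 0.07 ± 0.38 and 0.51 ± 0.36 (adjusted p 0.414 to 0.926).

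**Figure D3:**
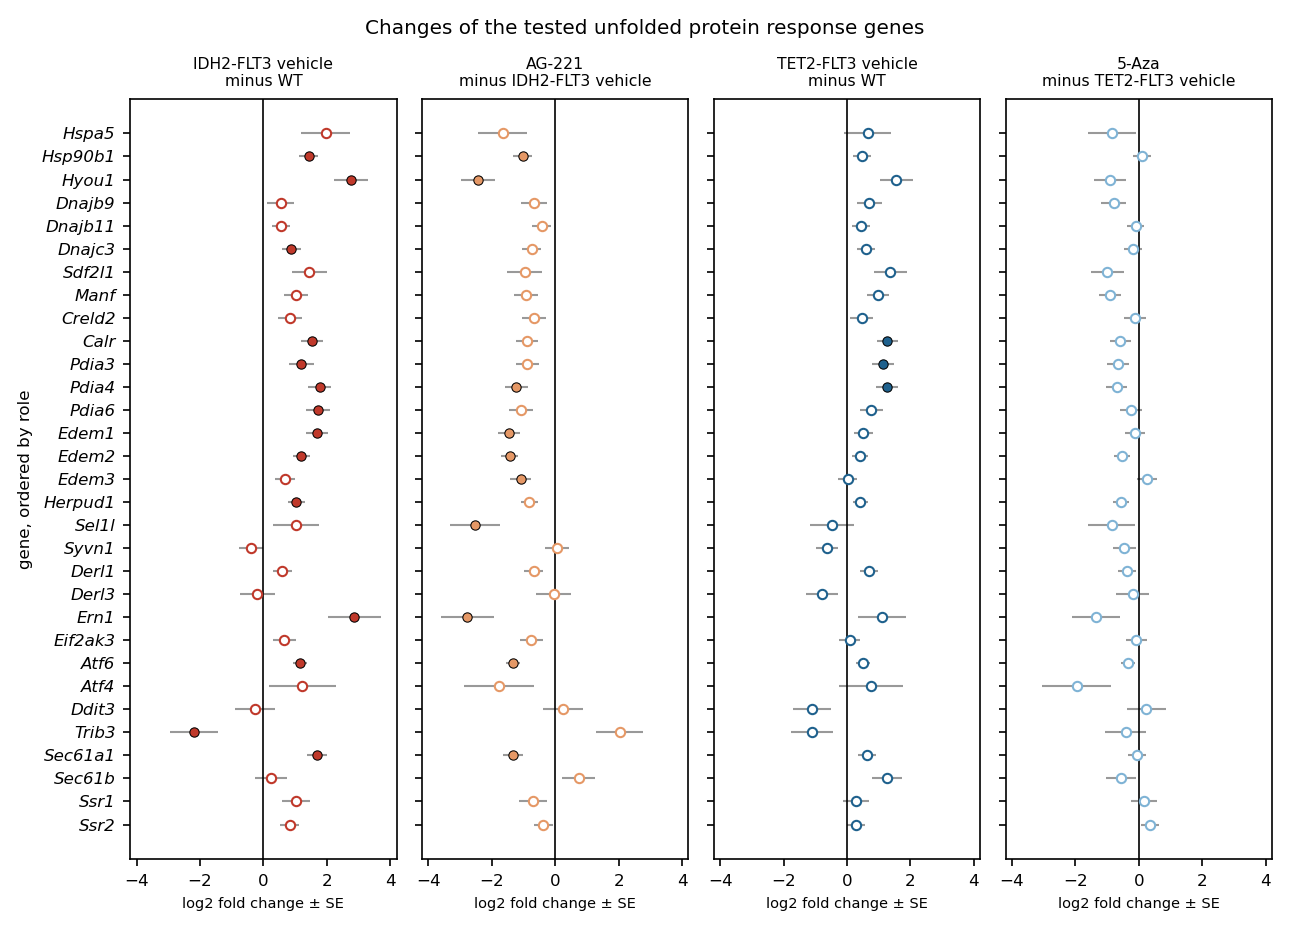
Log2 fold change with its standard error for the 31 tested members, ordered by role, in 4 comparisons; filled points passed an adjusted p of 0.05 in edgeR. Most points lie right of 0 for IDH2-FLT3 vehicle against WT (13 filled, with Trib3 filled on the left) and left of 0 for AG-221 against that vehicle (10 filled), while 3 are filled for TET2-FLT3 vehicle and 0 for 5-Aza.

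After AG-221, 10 of the 31 members fell against vehicle in IDH2-FLT3 cells and 0 rose, where 5.29% of all accessions fell and 4.39% rose. The median log2 fold change was -0.88 over the members and 0 over all accessions. For 11 members every AG-221 library lay below every vehicle library, against 10.8% of all accessions, and for Sec61b alone every one lay above, against 13%. This comparison uses the same 3 vehicle libraries as that with WT, so a library that is high by chance enters both. With V3 and V3-2 summed 3 members were lower (Hyou1, Edem2 and Atf6), and without V3 2 were (Hyou1 and Atf6). A fit to the vehicle and AG-221 libraries alone called 0 of all accessions, and the members' adjusted p ran from 0.066 there.

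Atf6 read 47.7, 55.8, 58.4 and 44.5 CPM in AG1, AG12, AG13 and AG8, below all vehicle libraries. Its log2 fold change was -1.33 ± 0.22 (adjusted p = 0.00338), and it passed with each of the 7 libraries left out. Edem2 read 129, 121, 106 and 117 CPM, also below all vehicle libraries, with -1.44 ± 0.27 (adjusted p = 0.00579), or -1.06 without V3 (0.0594). Edem1 read 99.3, 97.1, 83.1 and 46.7 CPM, each below the vehicle libraries, with -1.46 ± 0.34 (adjusted p = 0.0158). Its call was lost without V3 (0.0546) or V3-2 (0.145).

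Hyou1 read 75, 58.7, 43.7 and 65.6 CPM after AG-221, with a log2 fold change of -2.43 ± 0.54 (adjusted p = 0.0145), and -1.31 without V3-2 (0.16). Sec61a1 read 332, 355, 217 and 375 CPM, with -1.33 ± 0.31 (adjusted p = 0.0168), and lost its call without V3 (0.0989). For both genes the AG-221 libraries lay below all vehicle libraries. Hsp90b1 read 1025, 1130.4, 746 and 1028 CPM, with -1.03 ± 0.30 (adjusted p = 0.0392). Pdia4 read 302, 266, 187 and 323 CPM, with -1.22 ± 0.36 (adjusted p = 0.0383). For Hsp90b1 and Pdia4, whose groups also lay apart, the call was lost with any library but V9 left out (0.0519 to 0.214).

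Ern1 read 18, 12.7, 7.72 and 17.2 CPM after AG-221, overlapping V9, with a log2 fold change of -2.77 ± 0.83 (adjusted p = 0.0402) and -0.91 without V3-2 (0.516). Edem3 read 49.6, 39.4, 22.4 and 26.2 CPM against 52.4, 119.8 and 45.5 CPM in vehicle, overlapping V9, with -1.08 ± 0.33 (0.0462) and -0.51 without V3-2 (0.378). Sel1l passed at -2.53 ± 0.78 (0.0449) on at most 60 counts a library. Ern1 and Sel1l lost their calls with any library but V9 left out, and Edem3 with any but V9 and AG1.

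Of the members that had risen against WT and did not pass here, Herpud1, at 206, 199, 228 and 162 CPM, was closest, with -0.81 ± 0.26 (adjusted p = 0.0504). Pdia6 had -1.09 ± 0.38 (0.0677) and read 494, 663, 424 and 998 CPM, the last of them above V3-2. Calr read 2093, 1701, 1412 and 1403 CPM, with -0.88 ± 0.34 (0.0963), and Pdia3 had -0.88 ± 0.37 (0.123). Trib3 read 7.35, 12.9, 16.6 and 22.6 CPM after AG-221, with a log2 fold change of 2.03 ± 0.75 that did not pass (adjusted p = 0.0826). It passed without V9 and in 5 of the other settings.

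Set directly against WT, the AG-221 group gave 0 members higher and 0 lower with edgeR and with DESeq2, where 1.04% and 1.67% of all accessions passed. One member, Sec61b at 0.98 ± 0.47, had an unadjusted p under 0.05. It was also the 1 member whose AG-221 libraries all lay above WT, as for 6.98% of all accessions, and for 0 members all lay below, as for 8.85%. The median log2 fold change was 0.14 over the members and 0.01 over all accessions. Members ran from -1.51 for Sel1l to 0.98, and a missed threshold does not show that the levels were those of WT.

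**Figure D4:**
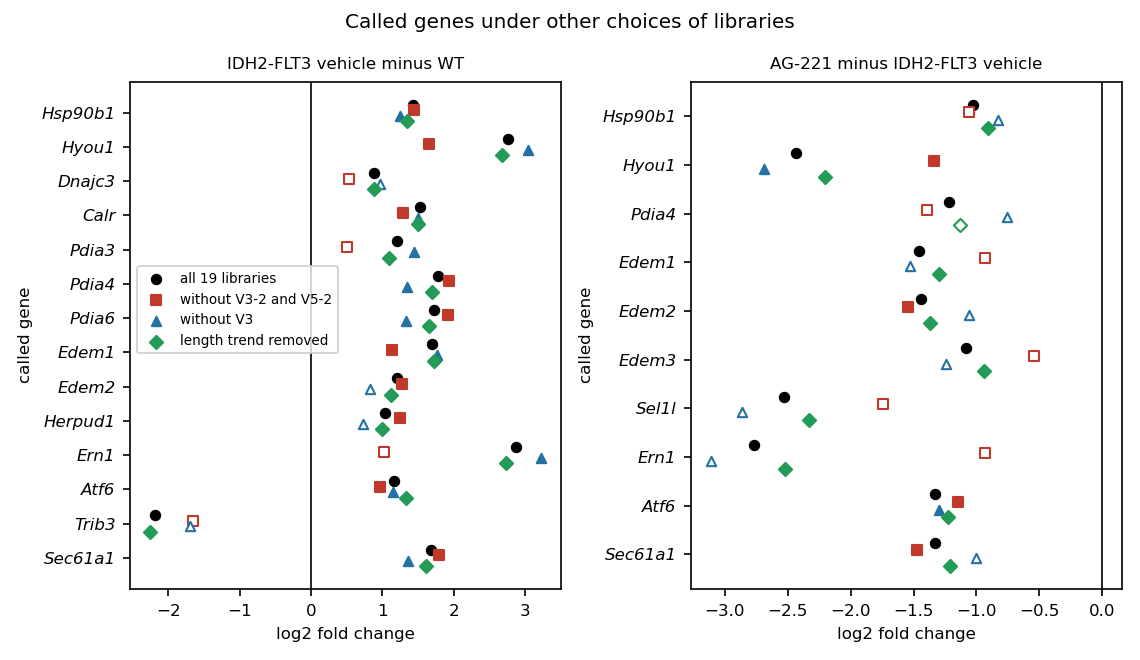
Log2 fold change of each called member in IDH2-FLT3 vehicle against WT and in AG-221 against that vehicle, with all 19 libraries and with other choices; filled symbols passed an adjusted p of 0.05. Directions are kept throughout, Hyou1 and Ern1 shrink without V3-2 and V5-2, and in the AG-221 comparison only Hyou1 and Atf6 stay filled without V3.

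5-Aza against vehicle in TET2-FLT3 cells gave 0 members higher and 0 lower with edgeR and 0 with DESeq2, where 0.431% of all accessions rose and 1.45% fell. Of the 31, 4 had an unadjusted p under 0.05: Manf at -0.91 ± 0.34, Herpud1 at -0.56 ± 0.24, Edem2 at -0.52 ± 0.25 and Pdia4 at -0.70 ± 0.33. The median log2 fold change was -0.41 over the members and -0.05 over all accessions. Manf read 192, 206, 169 and 163 CPM after 5-Aza and 658, 255, 257 and 202 CPM in vehicle, V1 being the highest. Herpud1 read 155, 159, 166 and 136 CPM after 5-Aza, all below the vehicle libraries at 226, 168, 332 and 185 CPM, and was the only member whose groups did not overlap. The groups lay apart, 5-Aza above or below vehicle, for 2.83% and 4.26% of all accessions.

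Hsp90b1 and Sec61a1 had log2 fold changes of 0.11 ± 0.28 and -0.05 ± 0.29 after 5-Aza. Against WT the 5-Aza group also gave 0 members higher and 0 lower with edgeR, where 0.617% and 1.1% of all accessions passed, with 4 at an unadjusted p under 0.05. These were Syvn1 at -1.08 ± 0.36, which DESeq2 called, Ssr2 at 0.63 ± 0.28, Trib3 at -1.51 ± 0.66 and Calr at 0.69 ± 0.32. Syvn1 read 3.8, 5.09, 3.19 and 2.44 CPM after 5-Aza, all below WT. For 7 members every 5-Aza library lay above every WT library and for 3 below, against 11.6% and 13.4% of all accessions.

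The drug responses were compared directly, as the AG-221 change minus the 5-Aza change. No member passed with edgeR or DESeq2 (0 higher, 0 lower), where 0.203% of all accessions were higher and 0.0254% lower. Of the 31, 8 had an unadjusted p under 0.05, the smallest for Atf6 at -0.99 ± 0.30 (adjusted p = 0.152), then Sec61a1 at -1.29 ± 0.42 and Edem1 at -1.34 ± 0.46. The median was -0.56 over the members and 0.04 over all accessions. A difference between these responses was thus not shown gene by gene. AG-221 was given only to IDH2-FLT3 mice and 5-Aza only to TET2-FLT3 mice, so drug and line cannot be told apart in this comparison.

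Other genes of the same pathways, from lists by function, moved as follows in IDH2-FLT3 vehicle against WT. Over all accessions 10.1% rose there. Of 17 tested ER folding enzymes outside the 34, 10 rose and 0 fell, with a median log2 fold change of 1.14. P4hb (PDI), the main disulfide isomerase, stood at 2469 ± 1059 CPM (SD, n = 3) against 454 ± 158 in WT (n = 4), with 2.44 ± 0.35 (adjusted p = 0.000157). Pdia5 was at 66.2 ± 17.6 against 13.7 ± 5.16 CPM, with 2.27 ± 0.36 (0.000332), and Erp29 had 1.38 ± 0.24 (0.000586). Of 15 other degradation genes 4 rose and 0 fell, among them the ubiquitin-conjugating enzyme Ube2g2 at 1.19 ± 0.24 (0.00203), Selenos at 1.23 ± 0.34 (0.0161) and the mannosidase Man1b1 at 1.25 ± 0.36 (0.0196).

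Of 19 targets of the integrated stress response, the branch downstream of PERK and ATF4, 3 rose, against 10.1% of all accessions, and 0 fell. These were Stc2, a secreted glycoprotein hormone, at 7.26 ± 1.64 CPM against 0.228 ± 0.29 and a fitted 4.91 ± 0.92 on the log2 scale (adjusted p = 0.00125), on few counts in WT, the folate enzyme Mthfd2 at 1.69 ± 0.35 (0.00251) and the tRNA synthetase Aars at 1.28 ± 0.33 (0.00983). Over the 19 targets the median log2 fold change was 0.99, with 16 above 0, against a median of 0.02 over all accessions. Trib3, of the same branch, had moved the other way. In TET2-FLT3 vehicle 4 of 17 folding enzymes, 1 of 15 degradation genes and 3 of 19 stress response targets rose, where 4.43% of all accessions did. The median log2 fold changes of these lists were 0.59, 0.31 and 0.74, against 0.07 over all accessions. Pdia5 had 2.30 ± 0.34 (0.000384), and the 3 targets were Atf3 at 3.89 ± 1.06 (0.0252), Phgdh at 0.93 ± 0.25 (0.0258) and Ddit4 at 1.92 ± 0.53 (0.028). Atf3 stood at 4.42 ± 1.9 CPM (SD) against 0.285 ± 0.33 in WT, on few counts there.

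After AG-221, 8 of 17 folding enzymes, 2 of 15 degradation genes and 3 of 19 stress response targets fell against vehicle, where 5.29% of all accessions did, and 0 rose. The median log2 fold changes of these lists were -0.84, -0.45 and -0.35, against 0 over all accessions. P4hb went to 647 ± 72.2 CPM (n = 4), with -1.93 ± 0.35 (adjusted p = 0.00458), Erp44 had -1.16 ± 0.24 (0.0107) and Ero1a, the oxidase of the isomerases, -1.92 ± 0.43 (0.0143). After 5-Aza 2 genes of these lists fell, where 1.45% of all accessions did. These were Pdia5 with -1.43 ± 0.33 (0.027) and the transcription factor Atf3 with a fitted -5.32 ± 1.19 (0.021), on counts near 0 after 5-Aza. Pdia5 and Stc2 were above WT after AG-221, with 1.29 ± 0.33 (0.0396) and 4.09 ± 0.88 (0.0116), Stc2 on few counts in WT.

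Markers of cell types moved with these comparisons. Over all accessions, 10.1% rose and 10.4% fell in IDH2-FLT3 vehicle against WT, and 4.43% and 5.71% in TET2-FLT3 vehicle. Against vehicle, 4.39% rose and 5.29% fell after AG-221, and 0.431% and 1.45% after 5-Aza. The granule list of granulocyte-monocyte progenitors holds Igfbp4 and Ms4a3 besides granule proteins. Of its 8 markers, 7 rose in IDH2-FLT3 vehicle against WT. Their summed level, over all 8, was 20960.4 to 106185 CPM in vehicle, 2504 to 13607 in WT and 7503 to 19779 after AG-221. It was 7057 to 11354 CPM in TET2-FLT3 vehicle and 6555 to 7497 after 5-Aza. Mpo, the most abundant of them, read 62762, 37307 and 11046 CPM in V3, V3-2 and V9. Of 8 tested stem cell markers, 5 fell, with a sum of 45.4 to 149 CPM in IDH2-FLT3 vehicle, 795 to 1264 in WT and 319 to 575 after AG-221. Of the markers not tested, Tek and Ly6a read 0 in every library. Of 7 plasma cell markers, whose type is known for a high ER load and whose list also holds Derl3 and Xbp1, 3 fell in IDH2-FLT3 vehicle, with a sum of 15.2 to 46.2 CPM against 162 to 869 in WT. Of the other lists, 6 of 7 monocyte, 2 of 7 mature neutrophil, 4 of 8 dendritic cell and 2 of 6 mast cell markers rose in IDH2-FLT3 vehicle against WT. All 7 tested B cell and all 6 tested erythroid markers fell, with 2 of 4 megakaryocyte, 4 of 7 T and NK cell, 2 of 8 dendritic cell and 1 of 6 mast cell markers. After AG-221, 3 of 7 monocyte, 4 of 8 granule, 1 of 7 plasma cell and 1 of 6 mast cell markers fell against vehicle. In the same comparison 4 of 8 stem cell, 3 of 7 T and NK cell, 2 of 6 erythroid, 2 of 4 megakaryocyte, 1 of 7 B cell, 1 of 7 plasma cell and 1 of 6 mast cell markers rose, and no dendritic cell or mature neutrophil marker passed. In TET2-FLT3 vehicle against WT, 4 of 8 dendritic cell, 2 of 7 monocyte, 1 of 8 granule, 1 of 7 T and NK cell and 1 of 6 mast cell markers rose. All 7 B cell and all 6 erythroid markers fell there, with 4 of 7 plasma cell, 3 of 4 megakaryocyte, 3 of 6 mast cell, 2 of 7 T and NK cell and 2 of 8 stem cell markers. After 5-Aza against vehicle, 4 of 8 dendritic cell, 1 of 7 monocyte and 1 of 7 plasma cell markers fell, while 3 of 6 erythroid, 2 of 6 mast cell, 1 of 8 stem cell, 1 of 4 megakaryocyte, 1 of 7 B cell and 1 of 7 plasma cell markers rose. The part of these cell types in the members' changes was not tested.

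Libraries also differed by transcript length. For transcripts in the shortest of 6 length classes, up to 1000 bases, the median log2 deviation from all libraries was -0.98 in V3-2 and -0.90 in V5-2, against -0.32 to 0.60 in the other libraries. V1 was at 0.59 for these and at -0.98 for transcripts over 6000 bases. Hyou1, of 4432 bases, and Ern1, of 3976, were highest in V3-2 and V5-2, and Ern1 was lowest in V1 at 1.77 CPM. In the length classes of these genes the median log2 deviation was 0.24 to 0.28 in V3-2 and V5-2. Sec61b, of 552 bases, was lowest in V3-2 and V5-2 at 163 and 119 CPM and highest in V1 at 1416 CPM. Not every member followed the trend. Ssr1, of 9306 bases, was the lowest of its group in V3-2 and in V5-2, at 809 and 563 CPM. Dnajc3, of 5190 bases, was the highest of its group in V1, at 270.3 CPM. With the length trend of each library removed, a setting chosen after seeing the data, all 14 calls in IDH2-FLT3 vehicle against WT were kept, Hyou1 at 2.68 (adjusted p = 0.000886) and Ern1 at 2.74 (0.0154). Of the 10 calls after AG-221, that of Pdia4 was lost (0.0513).

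**Figure D5:**
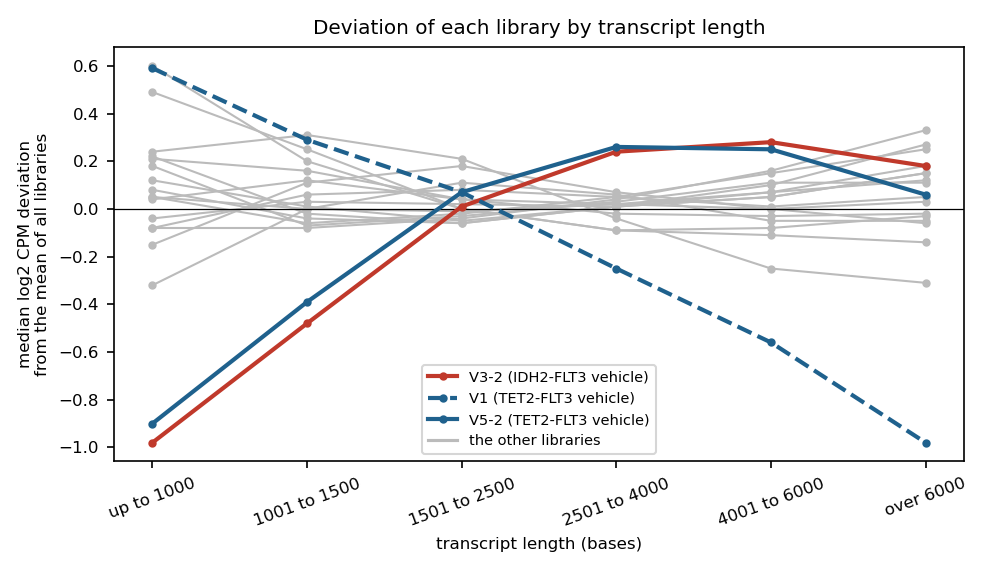
Median log2 CPM deviation of each library from the mean of all libraries, by transcript length in bases. V3-2 and V5-2 fall to -0.98 and -0.90 for the shortest transcripts, V1 falls from 0.59 to -0.98 towards the longest, and the other libraries (grey) stay between -0.32 and 0.60.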

How the data were processed

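RNA-seq libraries of sorted lin- Sca+ cKit+ cells were made from polyA RNA with a low-input kit, per the labels' protocols. The authors deposited whole-number counts per RefSeq accession for 33862 accessions, of which 189 rows name no gene and held 3.47% of the counts, and FPKM values computed from those counts. STAR 2.4.0f1, featureCounts of Subread 1.4.5-p1 and mm9 are named per the submitters' processing notes; strand use is not given in the sources used here. FPKM recomputed from the deposited counts differed by at most 6.28e-07 in relative terms. No pair of libraries was alike within sampling noise.

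Each gene was read from its accession with the highest mean count. Differences were tested with edgeR 4.0.16 (R 4.3.3) by the quasi-likelihood test, with group means over all 19 libraries, TMM factors of 0.761 to 1.22, the tool's filter on low counts, and Benjamini-Hochberg adjustment over 11830 accessions; the biological coefficient of variation was 42.9%. The scripts were tested on simulated data. Alternatives were other scalings, no filter or a stricter one, only the groups compared, DESeq2 1.42.0, limma 3.58.1 with voom or on log2(FPKM + 1) or log2(FPKM + 0.1), counts summed over accessions, V3 with V3-2 and V5 with V5-2 summed, and each library left out. The 34 genes and all lists were chosen with earlier results of these data known. Named beside them are up to 3 called genes of each other list with the smallest p and the marker genes needed to describe the cells. Likeness to Hspa5 across libraries was planned and not computed, because Hspa5 held 1 to 33 counts. Promoters were read from RefSeq in GRCm38.p6 and are not on the counts' build.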

Additional observations from a re-analysis of the deposited data

Results flagged for a closer look

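Each tested member was checked in each group of 4 libraries, which made 124 sets of values. In 6 sets a library lay far from the other 3 by Dixon's gap test at 95%. Chance gives 1 in 20 for independent sets, a rate near this, but genes of the same libraries are not independent. The sets of Hyou1, Manf, Ssr1 and Derl3 were all in TET2-FLT3 vehicle. Hyou1 stood at 345 CPM in V5-2, against 83.6 CPM in the nearest TET2-FLT3 vehicle library. Manf stood at 658 CPM in V1, against 257 CPM in the nearest. Ssr1 stood at 2050.1 CPM in V5, against 776 CPM, and Derl3 at 3.74 CPM in V19, against 2.32 CPM, in the same group. Edem3 was low in AZ17 at 39.3 CPM, where the nearest 5-Aza library had 58.9 CPM. Ddit3 stood at 1.37 CPM in AG13, against 0.847 CPM in the nearest AG-221 library, on few counts.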

How the results depend on the processing

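Over all alternatives, 5485 of 5753 values of single genes kept their side of the threshold, 151 lost it, 117 gained it, and 0 that passed in either fit turned direction; 242 that passed in neither had the other sign. Members higher in IDH2-FLT3 vehicle against WT numbered 10 to 15 with each library left out, and members lower 0 to 1. The member that fell, Trib3, left 0 lower with only the groups compared, with V3 and V3-2 summed, and without V3-2 and V5-2 or also V1, both chosen after seeing the data. In TET2-FLT3 vehicle against WT 5 were higher with no filter, with libraries summed or without V3-2 and V5-2, 6 with DESeq2, 7 with the length trend removed, and 0 with only the groups compared or without V3-2, V5-2 and V1. Leaving out single libraries gave 0 to 4 higher there, and log2(FPKM + 1) gave 2 lower.

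After AG-221 against vehicle, 5 were lower with upper-quartile factors, log2(FPKM + 1) or without V3-2 and V5-2, 6 with library totals, log2(FPKM + 0.1) or without V3-2, V5-2 and V1, 3 with libraries summed and 0 with only the groups compared. Leaving out single libraries gave 2 (without V3) to 13 (without V9) lower; 3 were lower without V3-2, 5 without AG12 or AG13 and 6 without AG1 or AG8. Trib3 made 1 higher with no filter, DESeq2, voom, either FPKM scale or without V9, so 0 to 1. Between the vehicle groups 1 was higher with DESeq2 size factors, no filter, the stricter filter or summed accessions, 2 with the length trend removed, 5 with the DESeq2 test, 0 to 5 with a library left out, and 0 to 1 lower.

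AG-221 against WT gave 1 higher with only the groups compared or without V3-2, V5-2 and V1, and 2 higher and 1 lower with voom. 5-Aza against WT gave 3 higher and 2 lower with only the groups compared, 4 and 2 with voom, and 1 lower with DESeq2, either FPKM scale or without V3-2, V5-2 and V1. The difference of drug responses gave 0 to 1 higher and 0 to 2 lower with a library left out. For 5-Aza against vehicle every alternative run gave 0 higher and 0 lower. The cause of these changes was not tested.

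Library totals moved the median of all accessions in IDH2-FLT3 vehicle against WT from 0.02 to -0.24, with 587 higher and 1669 lower in place of 1195 and 1233, and the members' median from 1.03 to 0.76. Upper-quartile factors gave 801 and 1474, and log2(FPKM + 1) gave 560 and 2153. In TET2-FLT3 vehicle against WT, totals gave 284 higher and 954 lower in place of 524 and 675. After AG-221, totals gave 665 higher and 285 lower in place of 519 and 626, and without V3-2 and V5-2 there were 104 and 161. No paired analysis was possible because columns other than those of WT carry no replicate numbers from the labels. Hspa5, Atf4 and Ddit3 have several accessions and held few counts in the accession read, which limits what could be detected for them here.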

Other observations

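Lists of genes around the ER that the text above does not describe also moved in IDH2-FLT3 vehicle against WT. Over all accessions 10.1% rose there and 10.4% fell. Of 23 tested genes of translocation and signal processing 8 rose and 0 fell, with a median log2 fold change of 0.63. The oligosaccharyltransferase subunits Rpn1, Rpn2 and Stt3a had 1.81 ± 0.29 (SE, adjusted p = 0.000358), 1.62 ± 0.31 (0.00133) and 1.77 ± 0.36 (0.00221). Of 22 genes of transport from ER to Golgi 11 rose and 0 fell, with a median of 0.83. Among them the cargo receptor Surf4 stood at 530.2 ± 169.6 CPM (SD, n = 3) against 158 ± 43.8 in WT (n = 4), with 1.74 ± 0.29 (adjusted p = 0.000558), the COPII coat subunit Sec24d had 1.68 ± 0.34 (0.00203) and the COPI subunit Copa 1.48 ± 0.34 (0.00531). Heat shock proteins of the cytosol and mitochondria, which are not ER chaperones, gave 4 higher of 18 and 0 lower, with a median of 0.76. Stip1, Hspa8 and Hsph1 had 1.12 ± 0.29 (0.0104), 1.32 ± 0.37 (0.0159) and 1.15 ± 0.33 (0.0176).

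After AG-221, 6 of the 23 translocation genes and 7 of the 22 transport genes fell against vehicle, and 0 of either rose. Over all accessions 5.29% fell there and 4.39% rose. Rpn1 had -1.53 ± 0.29 (adjusted p = 0.00626), Sec24d -1.95 ± 0.34 (0.004) and Surf4 -1.49 ± 0.29 (0.00867). None of the 18 heat shock proteins passed there with edgeR (0 lower, 0 higher), and 6 had an unadjusted p under 0.05. In TET2-FLT3 vehicle against WT, 4 of 23 translocation genes, 0 of 22 transport genes and 3 of 18 heat shock proteins rose. Over all accessions 4.43% rose there. Sec24d was higher in IDH2-FLT3 than in TET2-FLT3 vehicle, by 1.63 ± 0.34 (adjusted p = 0.00821), as was Stc2, by 3.24 ± 0.83 (0.0302). Stc2 held few counts in TET2-FLT3 vehicle, at 0.749 ± 0.725 CPM (SD).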
